A study of Mus musculus with 4 samples.

Results

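Bone marrow cells carrying the activating kinase mutation JAK2V617F were compared after one of 2 single changes, loss of Tet2 without drug or exposure to ruxolitinib with Tet2 intact. The cells were lineage-negative, Kit-positive (Lin-cKit+) marrow cells of C57BL/6 mice, and all 4 groups of the study carried JAK2V617F. The groups were Tet2+/+ control, Tet2+/+ with ruxolitinib, Tet2-/- control and Tet2-/- with ruxolitinib, called here the wild-type and knockout control and the wild-type and knockout ruxolitinib libraries. Each group had 1 sequenced library. The sources used here give neither the number, sex and age of the mice, nor how JAK2V617F was introduced, nor the dose, duration and setting of the drug exposure. Expression was given in FPKM, fragments scaled to transcript length and library size, for 24340 genes. The comparison was the log2 ratio of FPKM + 1 in the knockout control over the wild-type ruxolitinib library, for the 9908 genes whose FPKM averaged 1 or more across the 4 columns and that lay off the X and Y chromosomes and were not small RNAs. Of the 10471 genes with that mean, 330 were left out for a sex chromosome, 239 as small RNAs and 6 on both grounds. With 1 library a side no spread between replicates is known, so every ratio below describes a pair of libraries and carries no test.

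JAK2 passes signals from cytokine receptors to STAT5 and related STAT factors, and JAK2V617F does so without ligand in myeloproliferative neoplasms. Ruxolitinib is an inhibitor of JAK1 and JAK2, and genes for feedback inhibitors such as Cish and the Socs family are direct STAT targets that report on the pathway. Tet2 is a dioxygenase that oxidises 5-methylcytosine in DNA, and its loss often accompanies JAK2V617F in these neoplasms.

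Tet2 itself stood at 4.69, 5.05, 3.62 and 4.39 FPKM. This and every later set of 4 values runs from the wild-type control through wild-type ruxolitinib to the knockout control and then the knockout with ruxolitinib. These gene-level values were above 0 in the knockout and did not show which exons the reads came from. The most abundant RNAs were those of mast cells: Cma1, a mast cell chymase, was at 13677, 15834, 8289 and 10118 FPKM, and the 31 mast cell genes summed to 45722, 49301, 32512 and 36828 FPKM. Kit was at 421 to 647 FPKM. Mpo, a defining gene of granulocyte precursors, was low throughout, at 0.0380, 0.0445, 1.13 and 1.31 FPKM. It was higher in both knockout libraries, but its mean was below 1 FPKM and it was not counted. Genes of B cells summed to at most 0.789 FPKM and those of T and NK cells to at most 2.59 FPKM. Cpa3, another mast cell protease gene, was listed at 0 in all 4 libraries and Elane, of granulocyte precursors, in both wild-type libraries, over a wide deposited interval at chr10:79697305-80369637. Whether either listing reflects a low level was not tested, so neither is read as one. Xist was at 0.0241, 0.0309, 53.2 and 62.2 FPKM, and Ddx3y was at 21.3, 18.7, 0.0288 and 0.00886 FPKM. Sex and genotype therefore cannot be told apart in any ratio of a knockout to a wild-type library. Spacing of low FPKM values gave an estimated 47600000 fragments for the wild-type ruxolitinib library and 54600000 for the knockout control, so that 1 FPKM on a transcript of 1 kb stood for about 47.6 and 54.6 fragments. As these are bulk libraries, fewer cells of a type and less RNA per cell cannot be told apart.

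Most genes were at like levels in the 2 libraries compared. Of 9908 genes, 5744 (58%) differed by less than 1.2-fold between knockout control and wild-type ruxolitinib, and 5678 of these were also within 1.5-fold of the wild-type control in both libraries. The median log2 ratio was 0.00203, with quartiles at -0.21 and 0.22, and 50.2% of the ratios lay above 0. The knockout control was the higher library by 2-fold or more at 120 genes (1.21%) and the lower one at 147 (1.48%). At 1.5-fold or more the counts were 530 (5.35%) and 597 (6.03%). These percentages are the background against which counts of gene groups are read below. The genes just inside the 2-fold rule were Pdss1, at a log2 ratio of 1.001, and St6galnac3, lower by the same size. The gene just outside it was Eef1e1 on the higher side, at 0.99. Genes at 2-fold had lower levels than other genes: the median of their mean level in both libraries was 5.74 FPKM for the higher and 10.4 FPKM for the lower genes, against 14.98 FPKM over all counted genes. When each library was rescaled to TPM the median ratio shifted by 0.11, and 201 genes were higher and 149 lower in place of 120 and 147. The deposited totals were 511644 FPKM for wild-type ruxolitinib and 473933 FPKM for the knockout control. Rescaling raised both totals, so the added 1 also weighed less, and these effects on the counts were not separated. In the authors' deposited table, 2603 of 9902 tested genes (26.3%) had a q-value of 0.05 or less for this pair of libraries. That table reached this q-value for 248 of the 267 unlike genes, from a model with 1 library per side.

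**Figure D1:**
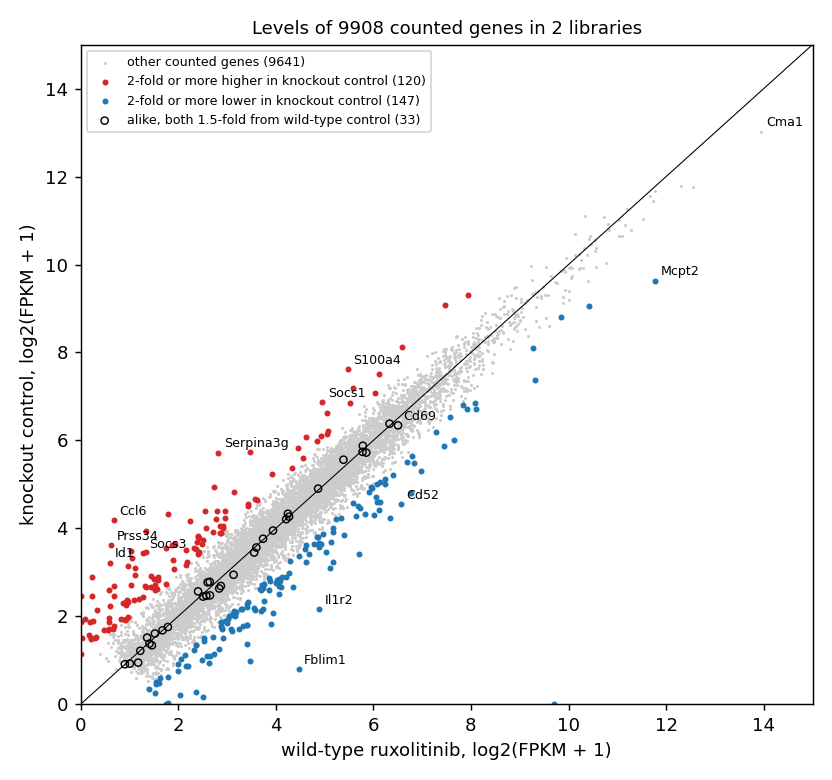
Each point is 1 of 9908 counted genes, placed by its level in the wild-type ruxolitinib library (x axis) and the knockout control library (y axis), both as log2(FPKM + 1); the line marks equal levels. Red points are the 120 genes at 2-fold or more higher in the knockout control, blue points the 147 lower, and open circles the 33 genes that are alike here and 1.5-fold from the wild-type control.

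The wild-type control library showed which of the 2 libraries departed from it at each unlike gene, with both ratios sharing that library. Among the 120 genes higher in the knockout control, 63 (52.5%) were at 1.5-fold or more above the wild-type control in the knockout only. Another 31 (25.8%) were below it in wild-type ruxolitinib only, 17 (14.2%) departed in both directions at once, and 8 (6.67%) were below it in both libraries but less so in the knockout; the remaining gene departed at 1.5-fold in neither. One-sided departure of the knockout was more common still among the 147 lower genes, at 121 (82.3%). Only 9 of these (6.12%) stood above the wild-type control in wild-type ruxolitinib alone, and 13 (8.84%) departed in both directions. The other 4 were below it in both libraries (2) or departed in neither (2, Lmo2 and Trp53inp1). In the knockout ruxolitinib library, which took no part in the ratio, 78 of the 120 higher genes and 110 of the 147 lower genes lay nearer to the knockout control than to wild-type ruxolitinib. The split followed the route: of the 63 genes higher in the knockout only, 57 stayed nearer the knockout control, and of the 31 lower with ruxolitinib only, 25 lay nearer wild-type ruxolitinib. The same counts were not made over all counted genes, so they are not read as particular to the unlike genes.

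Feedback genes of the JAK-STAT pathway were low with ruxolitinib and less so, or not at all, with Tet2 loss. Promoters of Cish, Socs3 and Serpina3g, a protease inhibitor gene with the same low drug-exposed levels that is no feedback gene, are shown because they hold the STAT motif TTCNNNGAA, a palindrome searched on both strands, given in capitals and on the strand of the gene, from RefSeq GRCm38.p6 (mm10).
Cish, chr9:107296654-107296683, plus strand, from 5 bases before the RefSeq start at 107296659: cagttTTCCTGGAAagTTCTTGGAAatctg
Socs3, chr11:117969472-117969560, minus strand, motif 154 bases before the start: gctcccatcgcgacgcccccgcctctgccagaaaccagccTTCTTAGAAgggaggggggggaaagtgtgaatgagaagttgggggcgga
Serpina3g, chr12:104236074-104236146, plus strand, motif 33 bases before the start: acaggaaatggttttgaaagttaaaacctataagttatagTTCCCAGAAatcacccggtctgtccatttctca
The motif occurred in 6.97% of the 9780 promoters of counted genes that had an entry, each 300 bases long, and in 4 of 22 promoters of the STAT5 and feedback list. A match describes the letters and says nothing of binding in these cells.

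Cish, a cytokine-induced inhibitor of STAT5 signalling, was at 174, 45.1, 114 and 40.7 FPKM. The knockout control was below the wild-type control yet well above both drug-exposed libraries, with a log2 ratio of 1.32 to wild-type ruxolitinib. Socs3, which blocks JAK kinases at cytokine receptors, was at 19.0, 1.43, 9.77 and 2.47 FPKM (log2 ratio 2.15). Socs1, a related inhibitor, was at 111, 30.0, 116 and 33.5 FPKM (1.91), so that the knockout control and wild-type control were nearly level and the drug-exposed libraries were low in both genotypes. Socs2 differed little between the pair, at 29.4, 19.0, 21.8 and 14.1 FPKM (0.19). Pim1, a STAT-induced survival kinase, was at 148, 55.5, 98.6 and 48.3 FPKM (0.82). Osm, the gene for the cytokine oncostatin M, was at 97.2, 27.8, 62.3 and 26.9 FPKM (1.14). Both had the order seen for Cish, with the wild-type control highest and the knockout control next. Serpina3g, outside the feedback list, was at 92.4, 6.09, 51.7 and 4.22 FPKM (2.89). Its deposited interval, chr12:104214544-104241934, starts upstream of the gene in a cluster of near-identical Serpina3 genes, so its reads may include those of neighbours.

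Not every STAT5-linked gene had this order. Of the 22 counted members of the STAT5 and cytokine feedback list, 10 were 1.5-fold or more higher in the knockout control and 3 were lower, and the median log2 ratio was 0.46. The median ratios to the wild-type control were -0.31 in the knockout control and -0.50 in wild-type ruxolitinib, so the list was below the wild-type control in both. Ccnd2, the gene for a G1 cyclin, was instead lower in the knockout, at 247, 227, 145 and 129 FPKM (-0.65). Bcl6, a transcriptional repressor that STAT5 restrains, was lower too, at 0.887, 2.44, 0.524 and 2.08 FPKM (-1.17), with both drug-exposed libraries above both controls. Myc was alike at 64.2, 57.0, 61.0 and 53.4 FPKM (0.10). Bcl2l1, a survival gene, was at 41.6, 31.1, 41.4 and 30.1 FPKM (0.40), with the controls level and both drug-exposed libraries lower. Id1, an inhibitor of basic helix-loop-helix factors, was at 2.69, 0.514, 8.32 and 1.99 FPKM (2.62). It was above the wild-type control in the knockout control and below it in both drug-exposed libraries.

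Components of the pathway showed smaller differences in the other direction. Of 23 counted genes for JAK kinases, STAT factors and cytokine receptors, none was 1.5-fold higher in the knockout control, 3 were lower and 20 had ratios below 0, with a median of -0.24. Jak2 was at 36.8, 35.1, 24.5 and 24.9 FPKM (-0.50), low in both knockout libraries. Stat3 was likewise low there at 46.3, 49.5, 25.5 and 32.8 FPKM (-0.93), and so did Epor, the erythropoietin receptor gene, at 4.68, 6.37, 2.46 and 3.29 FPKM (-1.09). Stat5a and Stat5b were within 1.2-fold or close to it, with ratios of 0.12 and -0.26. Csf2rb and Csf2rb2, near-identical genes for beta chains of cytokine receptors, had ratios of 0.01 and 0.17, with reads that counting could split between them.

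Immediate early genes, which are transcribed within minutes of receptor signalling, stood by their medians below the wild-type control in both libraries of the pair. The median ratio of 22 counted members to the wild-type control was -0.65 in the knockout control and -0.69 in wild-type ruxolitinib, and the median between the 2 libraries was 0.28, with 2 members 1.5-fold higher and none lower. Fosb, an AP-1 subunit gene, was at 21.3, 3.13, 4.18 and 2.70 FPKM (0.33), and Nr4a1, an orphan nuclear receptor gene, was at 37.8, 6.73, 8.46 and 7.99 FPKM (0.29). Egr1, a zinc-finger factor gene, was at 41.4, 16.6, 22.2 and 26.3 FPKM (0.40). In each of these the wild-type control stood alone above the other 3 libraries. Both list medians share that wild-type control library, so a high value in it alone would give the same pattern. Fosl1, another AP-1 subunit gene, had the largest ratio of the list, at 2.27, 0.902, 4.03 and 1.76 FPKM (1.40). Rgs1, a regulator of G protein signalling, was above the wild-type control with drug, at 121, 192, 136 and 205 FPKM (-0.49). Genes of NF-kB factors and their regulators leaned slightly lower in the knockout, with a median of -0.22 and 13 of 15 ratios below 0. Only Tnfaip2 among them passed 1.5-fold, at 17.1, 28.7, 11.02 and 31.4 FPKM (-1.30).

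Cytokine and chemokine genes were on the whole higher in the knockout control than in wild-type ruxolitinib. Of 29 listed genes, 18 were counted, 11 of them 1.5-fold or more higher and 2 lower, with a median of 0.84 (0.17 when members below the filter were kept). The median ratios to the wild-type control were -0.18 in the knockout control and -0.78 in wild-type ruxolitinib. Il13, a type 2 cytokine gene, was at 17.7, 0.500, 5.05 and 1.34 FPKM (2.01), and its neighbour Il4 was at 7.49, 3.49, 6.65 and 4.89 FPKM (0.77). Both were lowest in wild-type ruxolitinib. Ccl7, a monocyte chemokine gene, was at 37.5, 5.90, 20.1 and 11.7 FPKM (1.61), between the same extremes. Ccl6 and Ccl9, adjacent chemokine genes on chromosome 11 at 83582061-83623693 and 83572917-83578636, had another order. Ccl6 was at 0.654, 0.606, 17.1 and 8.58 FPKM (3.50) and Ccl9 at 2.21, 1.06, 10.2 and 7.77 FPKM (2.45). Both were high in the knockout libraries alone, and Ccl6 had the highest ratio of the named protein-coding genes. Ccl1 was lower in the knockout control, at 10.1, 2.40, 0.781 and 1.39 FPKM (-0.93), as was Csf1, the macrophage growth factor gene, at 14.3, 10.6, 6.22 and 9.44 FPKM (-0.69).

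**Figure D2:**
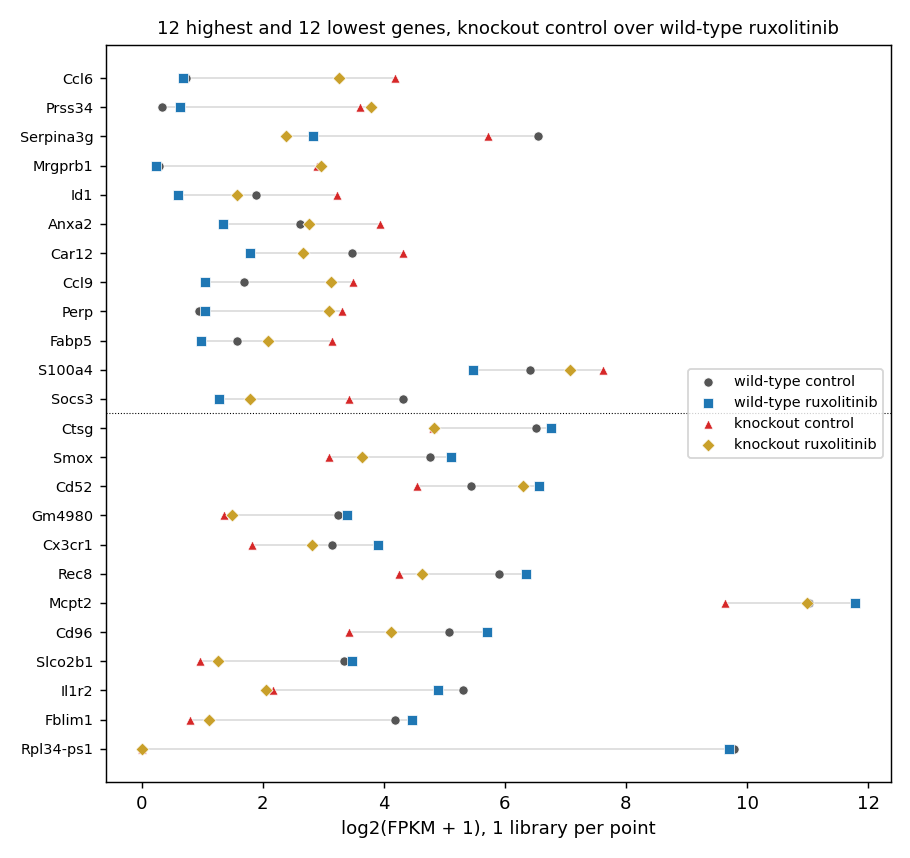
The 12 protein-coding genes with the highest and the 12 with the lowest ratio of knockout control over wild-type ruxolitinib, among those at 5 FPKM or more in either library; each symbol is 1 library and the x axis is log2(FPKM + 1). In Socs3 and Serpina3g the drug-exposed libraries lie together at low levels, whereas in Ccl6, Prss34, Mrgprb1 and Perp the knockout libraries lie together at high levels. Rpl34-ps1, the lowest, has a protein-coding RefSeq gene type but the symbol of a pseudogene.

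Several biosynthetic programmes sat between these patterns, above the wild-type control in the knockout control and below it in wild-type ruxolitinib. All 36 counted ribosome biogenesis genes had ratios above 0, 21 of them at 1.5-fold or more, with a median of 0.60. Their medians to the wild-type control were 0.39 in the knockout control and -0.24 in wild-type ruxolitinib. Ncl, which encodes nucleolin, was at 99.8, 79.8, 144 and 100 FPKM (0.85), and Mybbp1a, a nucleolar protein gene, was at 52.1, 39.9, 76.4 and 51.1 FPKM (0.92). The knockout ruxolitinib library was close to the wild-type control in both. Odc1 and Srm, which make polyamines, were likewise highest in the knockout control and lowest in wild-type ruxolitinib, at 18.6, 13.8, 25.6 and 15.6 FPKM (0.84) and at 127, 90.3, 166 and 100 FPKM (0.87). The wider Myc network list had a median of -0.08, with 4 of 16 members higher and 1 lower. That lower member was Mxd4, a Myc antagonist gene, at 58.6, 75, 31.4 and 45.8 FPKM (-1.23).

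Genes for cholesterol and fatty acid synthesis were higher in the knockout control in 29 of 30 cases, 13 of them at 1.5-fold or more and none lower by that size. The list median was 0.52, from 0.18 in the knockout control and -0.32 in wild-type ruxolitinib against the wild-type control. Scd1, which encodes a stearoyl-CoA desaturase, was at 28.4, 14.2, 36.9 and 20.1 FPKM (1.32), lowest with drug. Fdps, the farnesyl diphosphate synthase gene, was at 72.1, 55.2, 109 and 76.4 FPKM (0.97). Hmgcs1, the gene for the synthase that starts the mevalonate pathway, was at 121, 84.2, 148 and 112 FPKM (0.80). In all of these the knockout control was the highest library. The Hmgcs1 promoter is shown because it was the 1 of 27 promoters of this list with the sterol response motif TCACNCCAC on either strand, a motif present in 1.14% of all promoters, with the motif in capitals 137 bases before the start.
Hmgcs1, chr13:119690174-119690262, plus strand: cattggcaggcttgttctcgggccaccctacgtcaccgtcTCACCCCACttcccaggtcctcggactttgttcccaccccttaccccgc

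The ATF4 and unfolded protein response list had a median of 0.46, with 8 of 26 members 1.5-fold or more higher and none lower. Its leading members were enzymes of serine synthesis, Psat1 at 95.0, 79.3, 145 and 108 FPKM (0.87) and Phgdh at 5.92, 5.14, 10.1 and 7.96 FPKM (0.86). Both were highest in the knockout control. Glycolysis and hypoxia response genes were divided, with 8 of 25 members higher, 2 lower and a median of 0.07. Hk2, an inducible hexokinase gene, was at 9.87, 5.58, 14.2 and 11.7 FPKM (1.21), and Bnip3, a mitophagy receptor gene, was at 18.0, 6.20, 13.9 and 6.54 FPKM (1.05). P4ha1, a collagen prolyl hydroxylase gene, was lower at 41.6, 40.6, 21.1 and 20.4 FPKM (-0.92). Hk2 and Bnip3 were thus lowest in wild-type ruxolitinib, and P4ha1 was low in both knockout libraries.

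**Figure D3:**
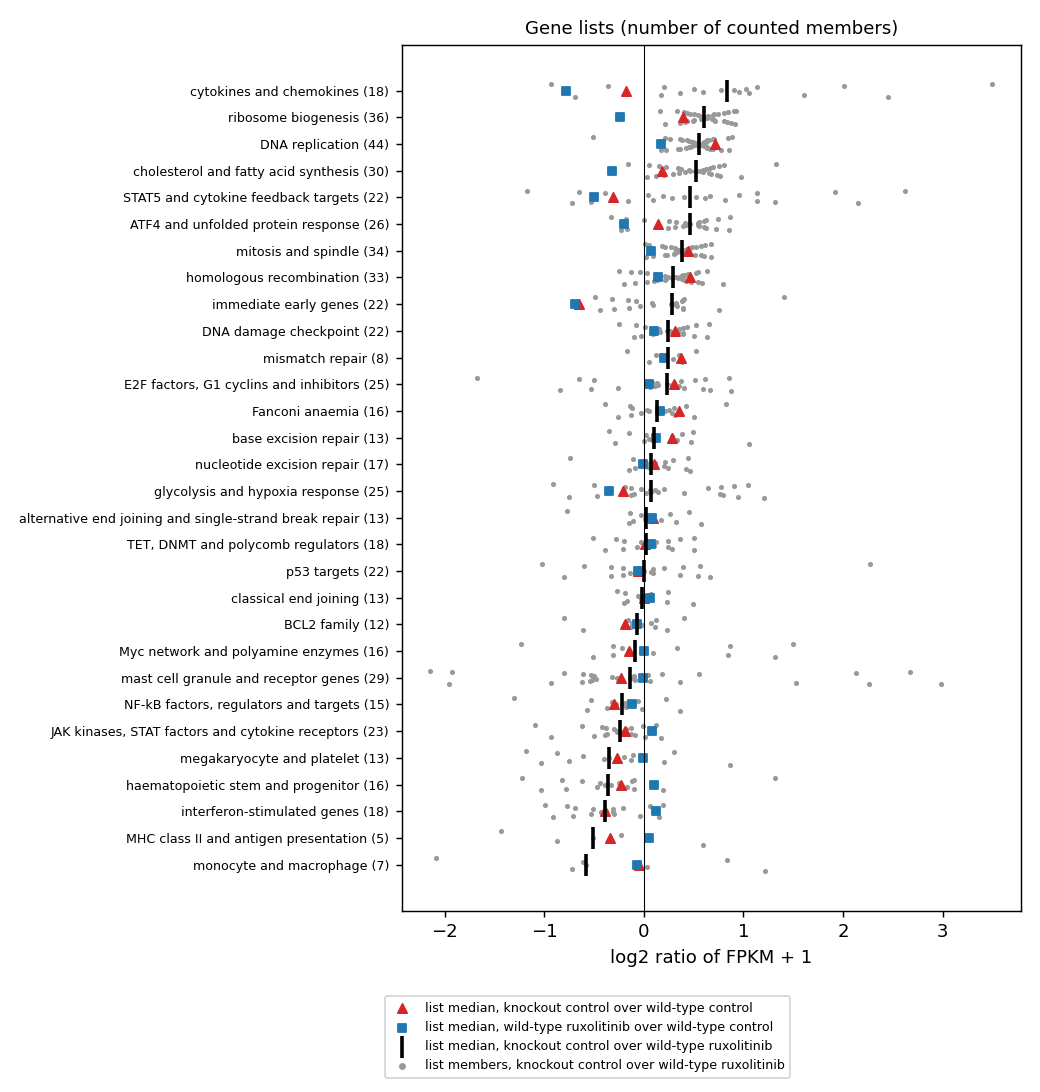
For each gene list with 5 or more counted members (number in brackets), grey dots give the log2 ratio of FPKM + 1 in knockout control over wild-type ruxolitinib for each member and the black bar their median; the red triangle and blue square are the list medians of knockout control and wild-type ruxolitinib over the wild-type control, which they share. For ribosome biogenesis and cholesterol synthesis the triangle and square lie on opposite sides of 0, at 0.39 and -0.24 and at 0.18 and -0.32, while for DNA replication both lie above 0, at 0.71 and 0.18.

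DNA replication genes were higher in the knockout control by a similar margin but with no low level under ruxolitinib. Of 44 counted members 43 had ratios above 0, 19 at 1.5-fold or more, with a median of 0.55. Their medians to the wild-type control were 0.71 in the knockout control and 0.18 in wild-type ruxolitinib. Tyms, which makes thymidylate, was at 18.9, 18.7, 35.4 and 33.5 FPKM (0.88), and Orc1, an origin recognition gene, was at 3.68, 3.13, 6.47 and 5.98 FPKM (0.86). Mcm5, a subunit gene of the replicative helicase, was at 42.9, 51.0, 79.4 and 85.5 FPKM (0.63). In each the knockout libraries were high with and without drug. Rfc2, a clamp loader subunit gene, went the other way at 229, 284, 199 and 257 FPKM (-0.51). The Mcm5 promoter is shown as an example of the 10 of 43 promoters of this list that held an E2F motif, TTTCCCGC or TTTGGCGC on either strand, against 3.10% of all promoters. The motif is in capitals, 149 bases before the start and on the reverse strand.
Mcm5, chr8:75109320-75109407, plus strand: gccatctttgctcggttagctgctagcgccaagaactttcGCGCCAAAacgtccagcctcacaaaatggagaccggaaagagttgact

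Mitosis and spindle genes were also higher in the knockout control, with smaller ratios: all 34 were above 0, 4 at 1.5-fold or more, and the median was 0.38. Tpx2, a spindle assembly factor gene, was at 43.0, 38.6, 62.4 and 51.8 FPKM (0.68), and Aurkb, a mitotic kinase gene, was at 33.1, 33.3, 53.6 and 49.8 FPKM (0.67). No promoter of this list held either E2F motif, and 74.2% held CCAAT against 37.9% of all promoters. Among 25 counted E2F factors, G1 cyclins and inhibitors, 5 were higher and 3 lower at 1.5-fold. Ccne1, a cyclin gene of S phase entry, was at 12.3, 12.7, 24.1 and 19.96 FPKM (0.88). Cdkn2a, which encodes the inhibitors p16 and p19Arf, was at 141, 126, 38.7 and 35.8 FPKM (-1.67), and its neighbour Cdkn2b was at 5.11, 3.05, 1.25 and 1.18 FPKM (-0.84). Cyclin E was thus high and the inhibitors low in both knockout libraries. Cdkn1a, the p21 gene, was low mainly with ruxolitinib, at 410, 209, 332 and 228 FPKM (0.66).

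DNA repair lists had few members at 1.5-fold, to be read against the 5.35% higher and 6.03% lower over all genes, and differences between the lists were not tested. Homologous recombination genes had a median of 0.29, with 28 of 33 ratios above 0 and 2 at 1.5-fold or more, from medians of 0.47 in the knockout control and 0.15 in wild-type ruxolitinib against the wild-type control. Brca1 was at 6.80, 8.11, 11.1 and 12.2 FPKM (0.41), high in both knockout libraries. Both members at 1.5-fold were higher, Rmi2 (0.79) and Dna2 (0.64), which act in resolving and resecting DNA. E2F motifs were in 18.5% of the promoters of this list. Classical end joining genes were alike, with a median of -0.02, none of 13 at 1.5-fold and 11 within 1.2-fold. Lig4, the ligase of that pathway, was at 2.18, 2.33, 2.35 and 2.43 FPKM (0.01). The list of alternative end joining, which also held single-strand break repair genes, had a median of 0.02, with Polq, a polymerase gene of end joining, at 2.26, 2.26, 3.83 and 3.59 FPKM (0.57), and Parp1 at 37.7, 39.4, 49.6 and 48.5 FPKM (0.32). Parp3 was lower in the knockout control, at 22.8, 21.4, 12.1 and 12.5 FPKM (-0.77). DNA damage checkpoint genes had a median of 0.25, with 2 of 22 higher and none lower. Medians of the Fanconi anaemia, mismatch, base excision and nucleotide excision lists were 0.13, 0.24, 0.10 and 0.07. Each of these had at most 1 member at 1.5-fold: Fanca (0.82), none, Apex1 (1.05) and Xpc (-0.74), in that order. Chromatin regulators of the TET, DNMT and polycomb families had a median of 0.02 and none of 18 at 1.5-fold, with Dnmt3a at 10.4, 9.31, 9.36 and 9.46 FPKM (0.01).

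Apoptosis and p53 target genes did not lean either way, with medians of -0.07 for the BCL2 family and 0.00 for the p53 targets. Bbc3, which encodes the death activator PUMA, was lower in the knockout control, at 33.2, 42.0, 23.6 and 32.4 FPKM (-0.80), and higher with drug in each genotype. Perp, a p53 target of cell adhesion and death, was at 0.924, 1.06, 8.95 and 7.59 FPKM (2.27), high in both knockout libraries.

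Genes high in the knockout alone included several of mast cells and basophils. Prss34, a mast cell and basophil protease gene at chr17:25298394-25300161, was at 0.266, 0.548, 11.3 and 12.8 FPKM (2.99). Mrgprb1 and Mrgprb2, receptor genes of the Mas-related family on chromosome 7, were at 0.225, 0.177, 6.48 and 6.83 FPKM (2.67) and at 0.769, 1.52, 10.01 and 29.6 FPKM (2.13). These relatives are similar enough for reads to be split between them. Mcpt8, a basophil protease gene, was at 94.4, 95.6, 277 and 254 FPKM (1.52). Tpsab1, a tryptase gene that RefSeq types as a transcribed pseudogene, was at 23.3, 10.03, 52.0 and 42.9 FPKM (2.26). In all of these both knockout libraries were above both wild-type libraries. Tpsab1 was also below the wild-type control in wild-type ruxolitinib, with a log2 ratio of -1.14, against 1.13 in the knockout control. S100a4, a calcium-binding protein gene, was at 84.6, 43.4, 196 and 134 FPKM (2.15), and Anxa2, whose product binds S100 proteins, was at 5.14, 1.54, 14.4 and 5.84 FPKM (2.60). Car12, a carbonic anhydrase gene, was at 10.1, 2.45, 19.0 and 5.38 FPKM (2.53), and Fabp5, a fatty acid carrier gene, was at 1.97, 0.970, 7.84 and 3.23 FPKM (2.17). These 4 were above the wild-type control in the knockout control and below it in wild-type ruxolitinib. Tfrc, the transferrin receptor gene, did the same at 35.2, 21.0, 55.5 and 34.7 FPKM (1.36).

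Other proteases of the mast cell locus on chromosome 14 were lower in the knockout control. Mcpt2, at chr14:56042123-56044634, was at 2085, 3518, 794 and 2043 FPKM (-2.15), and Mcpt1, a close relative at chr14:56017964-56020391, was at 531, 632, 165 and 263 FPKM (-1.93). Ctsg, which encodes cathepsin G at chr14:56099881-56102574, was at 90.4, 108, 27.1 and 27.3 FPKM (-1.96). Mcpt8 lies between them, at chr14:56082164-56085197, so neighbouring genes stood on opposite sides. Mcpt1 and Mcpt2 may share reads. Over the mast cell list, 5 of 29 counted members were 1.5-fold or more higher and 7 lower, with a median of -0.14. Fcer1a, the IgE receptor alpha chain gene, was among the lower ones with a ratio of -0.80, and Tpsb2 and Gzmb were alike at -0.11 and -0.10. The summed mast cell level, 49301 FPKM in wild-type ruxolitinib and 32512 FPKM in the knockout control, was lower in the same direction as the genes of this and the following paragraph, and its part in them was not tested.

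Most of the lowest ratios belonged to genes low in both knockout libraries. Fblim1, which links filamin to cell adhesions, was at 17.3, 21.1, 0.742 and 1.15 FPKM (-3.67), and Il1r2, the decoy receptor gene for interleukin 1, was at 38.5, 28.7, 3.48 and 3.15 FPKM (-2.73). Slco2b1, an organic anion transporter gene, was at 9.10, 10.1, 0.962 and 1.40 FPKM (-2.50), and Gm4980, on the same chromosome at 99624067-99627103 against 99657804-99711340, was at 8.51, 9.56, 1.57 and 1.80 FPKM (-2.04). Rec8, a meiotic cohesin gene, was at 59.1, 80.4, 18.0 and 23.7 FPKM (-2.10), and Smox, a spermine oxidase gene, was at 26.1, 33.6, 7.56 and 11.4 FPKM (-2.02). The knockout libraries were below the wild-type libraries in all 6. Smox has a wide deposited interval, chr2:131127412-131604824, so its reads may include those of other genes. Rpl34-ps1 was listed at 880, 835, 0 and 0 FPKM, with a q-value of 0.365 in the authors' deposited table. That symbol names a ribosomal protein pseudogene, although it matched a protein-coding RefSeq gene type. It has near-identical copies, among which reads can be assigned differently.

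A smaller set was both low in the knockout control and high in wild-type ruxolitinib. Cd52, a surface glycoprotein gene of leukocytes, was at 42.3, 94.1, 22.4 and 77.5 FPKM (-2.02), with both drug-exposed libraries above both controls. Cd96, an adhesion receptor gene of lymphoid cells, was at 32.6, 51.3, 9.74 and 16.5 FPKM (-2.28), and Cx3cr1, the fractalkine receptor gene, was at 7.82, 14.0, 2.55 and 6.02 FPKM (-2.08). In both, the drug-exposed library was the higher one within each genotype, and the knockout libraries were below the wild-type ones.

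Progenitor, megakaryocyte and interferon lists had medians below 0. The stem and progenitor list had a median of -0.36, with 5 of 16 counted members lower and 1 higher at 1.5-fold. Txnip, an inhibitor of thioredoxin, was at 198, 270, 115 and 160 FPKM (-1.22), and Lmo2, a cofactor gene of blood stem cells, was at 26.5, 36.8, 17.5 and 22.2 FPKM (-1.03). Mycn, also on this list, was higher at 15.6, 4.20, 11.97 and 3.34 FPKM (1.32) and low in both drug-exposed libraries. The megakaryocyte and platelet list had a median of -0.35, with 5 of 13 lower and 1 higher, and -0.08 when members below the filter were kept. Gp5, a platelet glycoprotein gene, was at 61.8, 83.2, 36.0 and 46.3 FPKM (-1.19), and Cd9, a tetraspanin gene, was at 231, 227, 111 and 112 FPKM (-1.03). Both were low in the knockout libraries. Interferon-stimulated genes had a median of -0.39, with 5 of 18 counted members lower and none higher. Irf1, an interferon response factor gene, was at 19.9, 26.7, 13.7 and 17.8 FPKM (-0.91), and Gbp2, a GTPase gene of the interferon response, was at 1.96, 2.71, 0.864 and 2.20 FPKM (-0.99). For both, wild-type ruxolitinib was the highest library and the knockout control the lowest. Few genes of other blood cells could be counted: 7 of 20 for monocytes and macrophages, 5 of 10 for MHC class II, 4 erythroid, 3 granulocyte, 3 stromal, 1 T or NK cell and no B cell genes. The 7 monocyte genes went both ways, 2 higher and 3 lower at 1.5-fold, with a median of -0.58 that was -0.0091 when members below the filter were kept. The MHC class II median was -0.51, and -0.11 without the filter.

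Genes at like levels after either change, but away from the wild-type control, were few. By the rule of at most 1.2-fold between the 2 libraries and at least 1.5-fold from the wild-type control on the same side, 31 genes (0.313%) were below it and 2 (0.0202%) above. The rule rests on 1 wild-type control library that both ratios share, and over all counted genes that library was 1.5-fold or more above the other 3 at 71 genes, against 23 for the knockout control, 9 for wild-type ruxolitinib and 13 for knockout ruxolitinib. In the knockout ruxolitinib library all 31 genes were also below the wild-type control. The rule did not use the knockout ruxolitinib library but did use the wild-type control. A high wild-type control value alone would therefore give this too. The knockout ruxolitinib library lay below both single-change libraries at 21 of the 31 genes, by 1.5-fold or more at 6 and by less at 15. It lay between them at 3 and above both at 7. In the authors' deposited table none of the 33 genes had a q-value of 0.05 or less between the pair of libraries.

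Some of these genes were lower still with both changes. Gpr176, an orphan receptor gene, was at 5.56, 1.33, 1.32 and 0.226 FPKM, and Grm6, a glutamate receptor gene, was at 13.6, 5.28, 4.56 and 1.47 FPKM. Hbegf, an EGF receptor ligand gene, was at 5.92, 1.57, 1.86 and 0.808 FPKM, and Lgals3, the galectin-3 gene, was at 116, 54.1, 57.8 and 33.6 FPKM. Nabp1, a single-stranded DNA-binding protein gene, was at 183, 79.5, 82.3 and 62.5 FPKM. At each, the knockout ruxolitinib library was the lowest of the 4. Others lay at a common level: Aldoc, an aldolase gene, was at 23.98, 12.4, 12.6 and 12.5 FPKM, and Plk3, a stress-responsive kinase gene, was at 32.8, 18.3, 18.2 and 20.1 FPKM. Cd69, an early activation antigen gene, was at 145, 89.9, 80.1 and 81.9 FPKM. At Aldoc, Plk3 and Cd69 the 3 libraries other than the wild-type control were within 1.2-fold of each other. Jund and Fosl2, AP-1 subunit genes of the immediate early list, were also among the 31. Above the wild-type control were Il5ra, the IL-5 receptor alpha gene, at 3.24, 6.33, 5.45 and 9.02 FPKM, and Pet117, a factor of mitochondrial complex IV assembly, at 0.941, 4.97, 4.53 and 0.500 FPKM. Il5ra was highest in knockout ruxolitinib and Pet117 was lowest there. The deposited interval of Pet117 was chr2:144368983-144407675, and whether its reads include those of other genes was not tested.

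**Figure D4:**
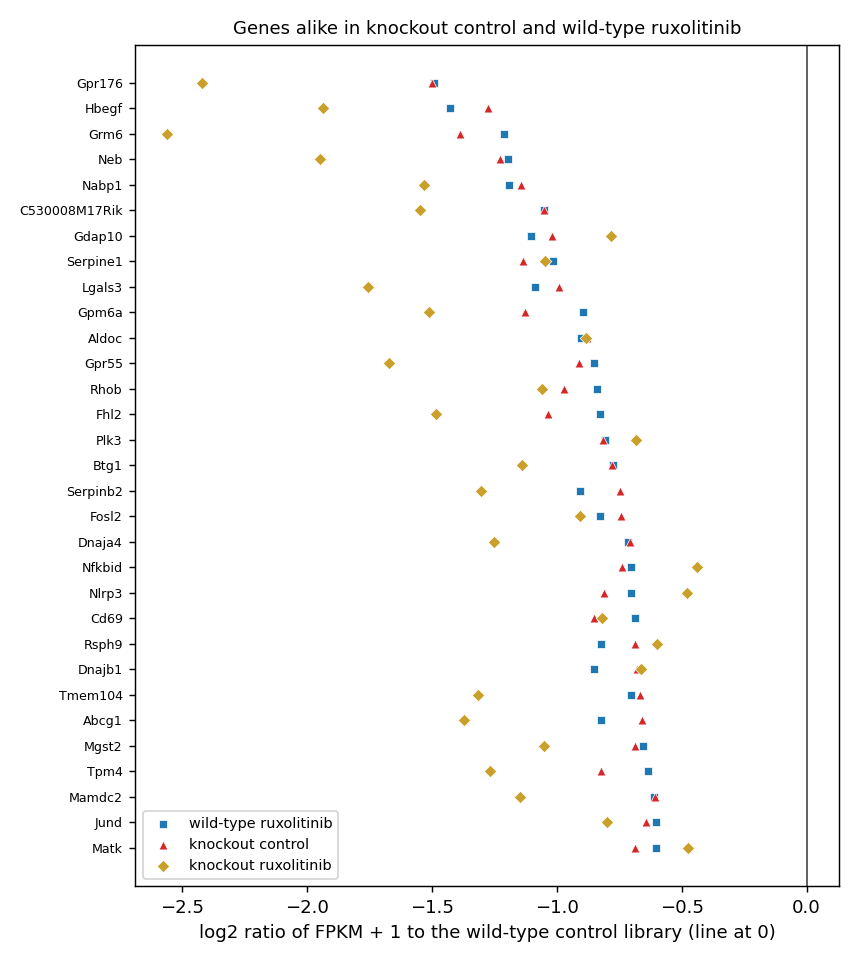
Log2 ratios of FPKM + 1 to the wild-type control library (vertical line at 0) for the 31 genes alike in knockout control and wild-type ruxolitinib and below that library, with 1 symbol per library. Squares and triangles lie together because the rule chose them so; the gold diamonds of knockout ruxolitinib, not used by the rule, lie left of both at 21 genes, farthest at Grm6 and Gpr176.

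Promoters of unlike genes held fewer CpG than those of all counted genes. The median number of CpG in the 300 bases around the start was 11.5 for 122 promoters of genes higher in the knockout control and 8 for 135 promoters of lower genes, against 21 over all 9780 promoters and 22 for genes within 1.2-fold. Fewer than 10 CpG were found in 45.9% and 54.8% of the promoters of higher and lower genes, and in 18.2% of all. Over every RefSeq promoter, of counted genes or not, the median was 7 and 56.5% held fewer than 10. The promoters of higher and lower genes belonged to 91 and 107 genes. These genes also had lower levels than all counted genes, and the part of level in CpG content was not tested. Methylation was not measured in these libraries. The AP-1 motif TGANTCA was in 12.3% and 12.6% of the promoters of higher and lower genes, against 4.81% of all. It was in 7.81% of every RefSeq promoter. The STAT motif was in 8.20% and 11.9% of the promoters of higher and lower genes, against 6.97% of all and 8.30% of every RefSeq promoter. It was also in 8 of the 34 promoters, from 24 genes, of those alike and below the wild-type control. The E-box CACGTG, a site of Myc and related factors, was in 8 of 34 promoters of ribosome biogenesis genes and in 10.3% of all. These shares describe letters within the windows, from a RefSeq table that held promoters for 7691 of the 9908 genes.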

How the data were processed

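Ribosomal RNA was depleted from total RNA and libraries were sequenced on Illumina instruments, per the labels' protocols. STAR and Cuffdiff with mm10 are named in the submitters' processing notes; no source used here gives their versions or the annotation. FPKM values of 4 libraries were deposited by the authors, with a second deposited table of log2 fold changes, a test statistic (a score), p-values and q-values for 6 library pairs. Of these, 1 pair was used, for its log2 fold changes and q-values.

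Log2 ratios of FPKM + 1, a scale that understates differences at low levels, were computed with Python 3.11.15 and pandas 2.3.3. A mean of 1 FPKM was required. Small RNAs were found by RefSeq gene type or symbol, and 9881 of the 9908 counted genes matched the RefSeq table. Unlike meant 2-fold, list members were counted at 1.5-fold, and alike meant within 1.2-fold. Members and the 35 lists were chosen with earlier results of these data known. Named genes were the 12 highest and 12 lowest protein-coding genes with 5 FPKM in either library, 8 alike genes per side with 5 FPKM in a library, up to 4 leading members of each list, and a set around Tet2, JAK-STAT and repair; other named genes, the promoters shown, and the sterol, E-box and AP-1 motifs were chosen after values were seen. Depth was estimated from single-transcript genes longer than 1500 bases, less 200 bases; 78.6% to 82.3% of held-out low values lay within 0.15 of whole multiples of 1 fragment. The scripts were tested on simulated data. Alternatives were other pseudocounts, filters, scalings and fold rules.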

Additional observations from a re-analysis of the deposited data

How the results depend on the processing

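With 1 library per group no error can be attached to any ratio, and no replicate could be left out. No paired analysis was possible because each group has 1 library and the labels carry no replicate numbers. Counts of unlike genes depended on low values: the 120 higher and 147 lower genes became 183 and 229 with a pseudocount of 0.1, 41 and 56 with a pseudocount of 5, and 39 and 31 at 3-fold. The higher count was 68 at a mean of 5 FPKM or more and 201 after rescaling to TPM. The 31 genes alike below the wild-type control became 54 when 1.5-fold between the libraries was allowed and 8 at 2-fold from the wild-type control. The 2 alike genes above it became 12 with a pseudocount of 0.1, 1 with a pseudocount of 5, 1 at a mean of 5 FPKM or more, 7 in TPM and 1 at 2-fold. Of 210 list medians over 30 lists and all alternatives, 209 moved by less than 1.5-fold on the ratio scale, a wide tolerance, and the exception was the cytokine list without a filter, at 0.17. Without the filter the monocyte, MHC class II and megakaryocyte medians also came nearer to 0, at -0.0091, -0.11 and -0.08. So did those of the interferon and progenitor lists, at -0.25 and -0.21, and the immediate early median was 0.09 at a mean of 5 FPKM or more. The medians of the classical end joining, Myc network, BCL2 and p53 lists, all near 0, took either sign. Of 696 values for single named genes, 61 moved and none reversed while called. Leaving out genes listed at 0 in either library was added after the data were seen.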
